A study of Homo sapiens with 12 samples.

Results

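The EGF family of growth factors and their ERBB receptors were examined in human adipocytes with and without linc-ADAIN, a long intergenic noncoding RNA of adipose tissue. The 9 genes were taken by name, with 6 ligands (AREG, EREG, HBEGF, TGFA, BTC and NRG1) and 3 receptors (EGFR, ERBB2 and ERBB3), out of 28901 gene names in the count table. All 9 names were found. ASC52telo hTERT is a single line of adipose stromal cells, immortalized with telomerase. The cells carried a lentiviral shRNA, either a scramble sequence or 1 hairpin against linc-ADAIN (KD), were sorted for the ZsGreen reporter, and were collected as adipocytes at day 14 of differentiation. LPS, the bacterial lipopolysaccharide that activates TLR4, was given to some cells of each kind for 4 h at 100 ng/mL and to the others not. The 4 groups were therefore scramble control, scramble control with LPS, KD and KD with LPS, with 3 libraries of polyadenylated RNA in each. The libraries of a group came from 1 experiment in triplicate, so the spread given here is that within the experiment, and with 3 libraries against 3 an exact permutation test cannot go below a two-sided p of 0.1. All cells had been expanded in medium with recombinant EGF and FGF before they were differentiated. Per the study's methods, differentiation began in a medium with insulin, dexamethasone, isobutylmethylxanthine and rosiglitazone. A maintenance medium followed, for which insulin and dexamethasone are listed but isobutylmethylxanthine and rosiglitazone are not.

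EGF family ligands are made as membrane-anchored precursors and are released by metalloproteases, mainly ADAM17 and ADAM10. The freed ligand pairs receptors at the cell surface, and the paired kinases signal through RAS, RAF and ERK and through PI3K and AKT. AREG, EREG, HBEGF, TGFA and BTC bind EGFR, and HBEGF, BTC and EREG also bind ERBB4. NRG1 binds ERBB3 and ERBB4, while ERBB2 has no known ligand and serves as the preferred partner of the other receptors. In fat cells, EGF receptor signalling is known to hold back or promote adipocyte differentiation depending on its strength and timing.

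The deposited values were estimated counts per gene, and the totals over named genes were 28.4 to 53.8 M (1e6) per library. Levels are given as CPM (counts per 1e6 after TMM scaling, which sets library sizes by the bulk of the genes), and differences as log2 fold changes from edgeR's quasi-likelihood test, with the standard error (SE) and the p adjusted over all genes tested. A gene was called when its adjusted p was below 0.05 and its change at least 2-fold. Expression of linc-ADAIN was not analysed here, so the KD was not checked in these libraries. All 8 of the LPS-responsive genes listed, such as CXCL8 and ICAM1, were called higher with LPS in scramble control and in KD. Of these 8, 4 were called higher in KD than in scramble control with LPS, where 4.58% of all genes were. For 2 of the 8, the LPS effect differed between KD and scramble control (adjusted p below 0.05 in edgeR's test of the interaction). That held for 1.28% of all genes. Adipocyte markers were present in every library, but their summed level was 3139 to 4350 CPM in scramble control, 3647 to 4210 in scramble control with LPS, 629 to 1829 in KD and 510 to 1183 in KD with LPS, and 5 of 9 were called lower in KD without LPS and 6 of 9 with LPS. Of all genes, 7.77% and 8.48% were called in these comparisons, in either direction. The summed level of 7 stromal markers was also lower in KD, at 1812 to 1872 CPM against 2889 to 2957 without LPS and at 1539 to 1662 against 2618 to 2797 with LPS, and 2 of them (THY1 and ENG) were called lower in both comparisons. The stromal markers did not all move this way. Without the 2-fold limit, 3 of the 6 tested were lower and 1 higher in each comparison, where 27.2% and 26.9% of all genes passed. PDGFRA was at 879 to 952 CPM in KD against 716 to 803 in scramble control without LPS, and DLK1 was at 0 counts in all 12 libraries. Of 8 leukocyte markers, 2 (CD163 and ITGB2) were called higher in KD in both comparisons, and the summed level was 56.5 to 84.8 CPM in KD against 4.29 to 6.49 in scramble control, and 56.1 to 79.9 against 3.94 to 5.27 with LPS. CD163 alone made up nearly all of this sum, at 55.1 to 82.5 CPM in KD and 54.4 to 78.4 in KD with LPS. ITGB2 had 0 to 39 counts, and its call was lost with LPS without any 1 of the 6 libraries (adjusted p 0.054 to 0.14 from edgeR's test) and with the replicate block in both comparisons. AIF1 and TYROBP, which mark macrophages, were at 0 counts in all 12 libraries, and PTPRC, the pan-leukocyte antigen CD45, was at 0 to 12 counts. Of 6 endothelial markers, the summed level was 23.8 to 27.2 CPM in scramble control, 15.5 to 17.0 with LPS, 11.9 to 12.3 in KD and 8.48 to 13.5 in KD with LPS, with CDH5 at 0 to 3 counts throughout. VWF was called lower in KD in both comparisons, TEK lower without LPS and KDR higher with LPS. The 6 epithelial markers summed to at most 1.02 CPM in any library. The part of these shifts in the results below was not tested. In bulk RNA, fewer cells of a type and less RNA per cell cannot be told apart. On the third principal component of all genes, replicate 1 of KD and replicate 1 of KD with LPS stood apart from the other 10 libraries, at -62.9 and -41.1 against -5.9 to 28, and the calls below are also given without them where that ended a call.

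EREG was the most abundant member in scramble control with each transcript length tried. Divided by transcript length and expressed per 1e6 in each library, with the median transcript of each gene in GENCODE 44, scramble control had 210 ± 24.9 of EREG (SD, n = 3 libraries, as for each mean that follows), 140 ± 10.2 of EGFR, 59.2 ± 7.64 of AREG and 56.0 ± 9.18 of ERBB2. HBEGF stood at 5.23 ± 0.654 and NRG1 at 2.86 ± 0.0648 on this scale, while BTC, ERBB3 and TGFA were below 0.5. With the median transcript, AREG and ERBB2 did not differ beyond their spread in scramble control. EREG made up 74.5% to 76.4% of the 6 ligand mRNAs per length in scramble control and AREG 20.5% to 22.2%, or 53.0% to 55.5% and 41.2% to 43.7% with the longest transcript. The order of the others depended on the length chosen. With the longest transcript of each gene, EREG was at 144 ± 16.6, AREG at 112 ± 13.5, EGFR at 77.4 ± 6.99 and ERBB2 at 32.5 ± 5.66 in scramble control. In KD without LPS, AREG (187 ± 46.5) was above EREG (149 ± 25.2) with this length. Within each of these KD libraries AREG took the larger share of the ligand mRNAs, 49.0% to 57.9% against 38.9% to 47.6% for EREG.

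EREG, AREG and BTC lie in one cluster of EGF family genes on chromosome 4 (GRCh38). EREG spans 74365145 to 74388749 and AREG 74445136 to 74455005, both on the plus strand and 56.4 kb apart, with EPGN 48.4 kb upstream of EREG and BTC 289.8 kb beyond AREG on the minus strand. The promoters of AREG and EREG are shown because these neighbours gave different responses below. Each runs from 250 bases before to 50 bases after the start site in RefSeq (GRCh38.p14), at chr4:74444886-74445185 for AREG and chr4:74364895-74365194 for EREG, both on the plus strand. Capitals mark the cAMP response element TGACGTCA and the TATA element TATAAA, searched on both strands.

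AREG promoter: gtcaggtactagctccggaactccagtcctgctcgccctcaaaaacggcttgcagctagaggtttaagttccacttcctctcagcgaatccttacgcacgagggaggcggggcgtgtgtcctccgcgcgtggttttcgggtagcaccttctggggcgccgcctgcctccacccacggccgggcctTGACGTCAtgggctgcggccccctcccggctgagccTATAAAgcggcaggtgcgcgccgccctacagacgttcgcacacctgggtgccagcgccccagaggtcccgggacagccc
EREG promoter: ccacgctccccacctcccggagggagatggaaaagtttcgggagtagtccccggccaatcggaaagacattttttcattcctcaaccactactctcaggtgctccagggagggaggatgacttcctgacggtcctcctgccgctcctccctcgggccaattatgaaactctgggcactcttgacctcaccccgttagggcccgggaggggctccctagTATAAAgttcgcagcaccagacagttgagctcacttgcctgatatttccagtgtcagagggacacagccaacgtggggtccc

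AREG held the cAMP response element at -65 and a TATA element at -29, and EREG held a TATA element at -32 and no cAMP response element. Of 35114 RefSeq promoters of this length, 1.85% held TGACGTCA and 11.5% TATAAA. No match to AP-1 (TGANTCA, in 7.71% of promoters) or to the consensus of NF-kB (in 5.91%) lay in either window, nor in that of HBEGF. These are matches of letters only, and no binding was measured here.

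AREG, amphiregulin, was higher in KD than in scramble control with and without LPS. Without LPS it was at 62.6, 48.0 and 55.6 CPM in the scramble libraries (55.4 ± 7.31) and at 109, 104 and 65.0 in the KD libraries (92.6 ± 24.1). The KD libraries were all higher than the scramble libraries, KD replicate 3 only just. The log2 fold change was 0.74 (SE 0.17, adjusted p = 0.0059 from edgeR's test), a 1.68-fold rise that fell short of the 2-fold limit. With LPS, AREG was at 36.1, 37.6 and 41.4 CPM in scramble control and at 78.4, 65.5 and 61.3 in KD. The groups were well apart, with a log2 fold change of 0.83 (SE 0.11, adjusted p = 5.5e-05 from edgeR's test). The order of the libraries within KD matched that of the summed adipocyte markers, which were at 1829, 1389 and 629 CPM in the 3 KD libraries and at 1183, 812 and 510 in the 3 with LPS, although KD had less of these markers than scramble control. In scramble control the order was not the same, since replicate 1 had the highest AREG and the lowest sum (3139 CPM), and with LPS it also differed. A link between these orders was not tested.

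LPS lowered AREG in scramble control, from 55.4 ± 7.31 to 38.3 ± 2.73 CPM, with no overlap between the groups and a log2 fold change of -0.52 (SE 0.11, adjusted p = 0.0067 from edgeR's test). In KD the groups overlapped, the log2 fold change was -0.44 (SE 0.16) and the adjusted p of edgeR's test was 0.096. Whether the adjusted p fell below 0.05 depended on 1 library and on the settings. Without KD replicate 3 the change was -0.65 with an adjusted p of 0.0012 from edgeR's test, and other settings gave 0.0015 to 0.096. The LPS effect on AREG did not differ detectably between KD and scramble control (interaction 0.09, SE 0.22, adjusted p = 0.96 from edgeR's test).

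EREG, epiregulin, was close to the same level in 3 of the 4 groups and was higher where KD and LPS were combined. It was at 301, 242 and 252 CPM in scramble control, at 236, 197 and 246 in scramble control with LPS, and at 275, 317 and 236 in KD without LPS. In KD with LPS it was at 566, 491 and 645 CPM (568 ± 76.8). The libraries of the first 3 groups overlapped one another, and the lowest library of KD with LPS was above all of them. KD raised EREG 2.50-fold with LPS (log2 fold change 1.32, SE 0.11, adjusted p = 7.4e-07 from edgeR's test) and changed it by 0.06 without (SE 0.11, adjusted p = 0.73 from edgeR's test). LPS raised it 2.06-fold in KD (1.04, SE 0.11, adjusted p = 1.7e-05 from edgeR's test), against a log2 fold change of -0.21 in scramble control (SE 0.11, adjusted p = 0.22 from edgeR's test). The 2-fold limit on the rise with LPS in KD was met narrowly, since the change was 0.93 to 1.14 with each library left out in turn, under 1 without replicate 3 of KD with LPS and also without replicate 3 of KD, and 0.98 with library size alone as scaling. The difference between the LPS effects, tested as the interaction of KD with LPS over all 12 libraries, was 1.26 (SE 0.17, adjusted p = 7.3e-04 from edgeR's test). EREG was the 1 member of 9 with an adjusted p below 0.05 for the interaction, where 1.28% of 17173 genes had one.

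**Figure D1:**
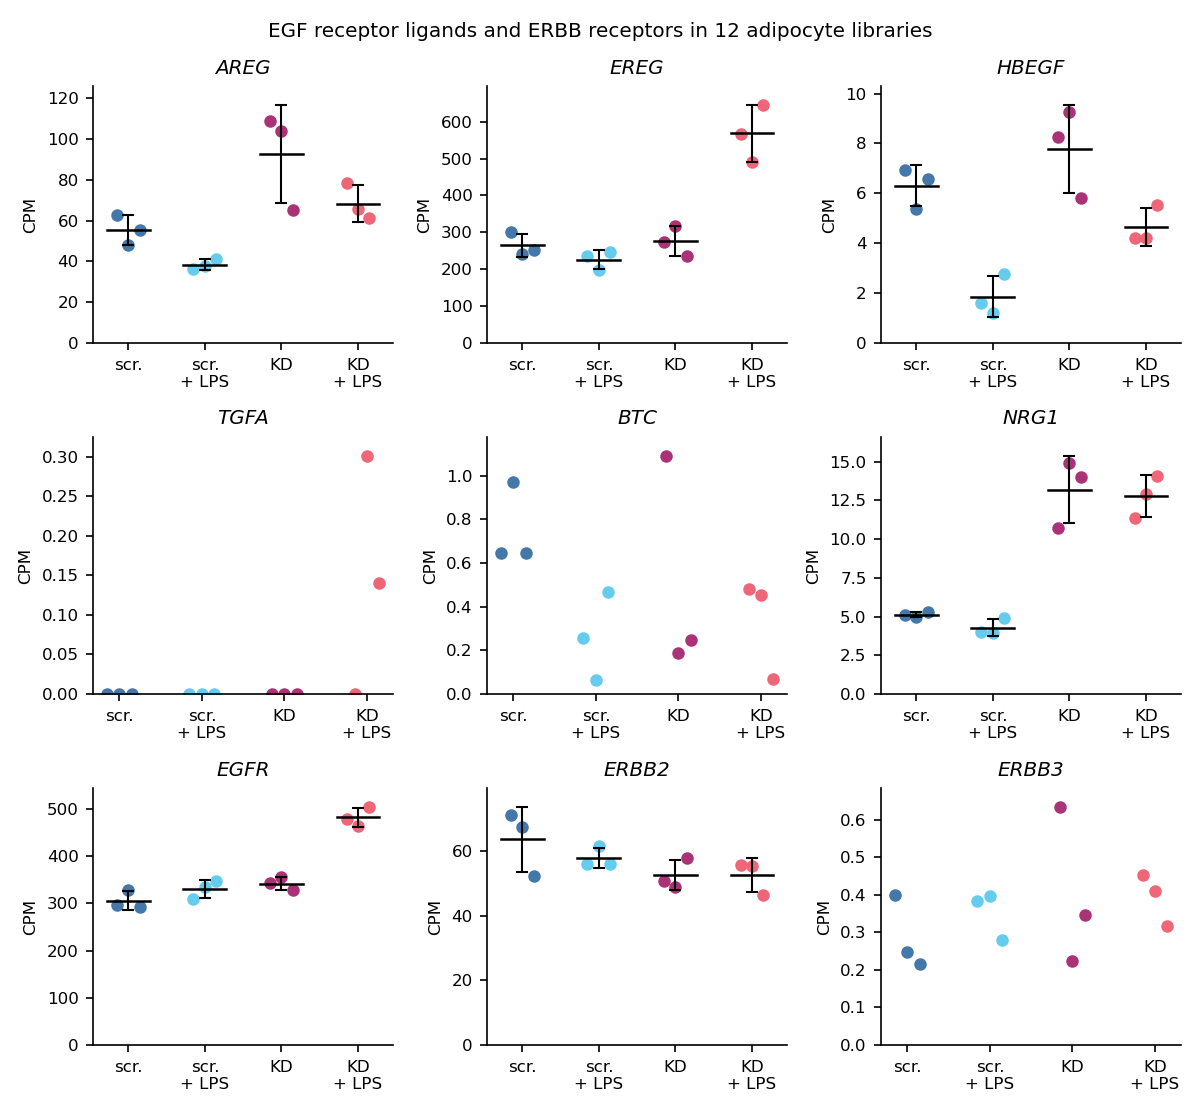
Level (CPM, linear axis from 0, scaled separately for each gene) of the 9 members in the 3 libraries of scramble control (scr.), scramble control with LPS, KD and KD with LPS. Points are libraries and, where a gene averaged 50 counts per library or more, the bar and whiskers are the mean and SD. EREG and EGFR stood highest in KD with LPS, NRG1 in both KD groups, and HBEGF lowest in scramble control with LPS.

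The counts of the 2 neighbours therefore shifted against each other. Within a library, the number of EREG counts per AREG count was 4.53 to 5.04 in scramble control, 5.26 to 6.53 with LPS, 2.51 to 3.64 in KD and 7.22 to 10.5 in KD with LPS. None of these 4 ranges overlapped another. The ratio uses 2 values of the same library, so it does not depend on the scaling. It is given as a description, with no test.

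**Figure D2:**
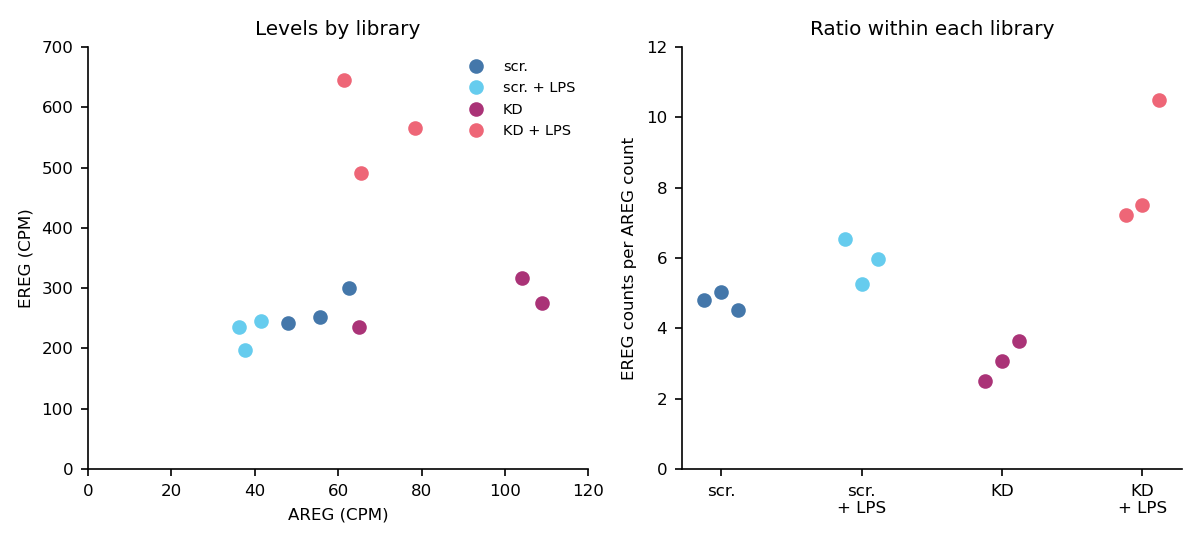
Left, EREG against AREG (both CPM, linear axes from 0) in the 12 libraries, coloured by group; right, EREG counts per AREG count in each library (axis from 0). KD without LPS lies to the right at an EREG level like that of scramble control, and KD with LPS lies above all other groups on EREG, with ratios of 7.22 to 10.5.

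HBEGF, heparin-binding EGF-like growth factor, fell with LPS. It was at 6.95, 5.38 and 6.57 CPM in scramble control and at 1.59, 1.22 and 2.77 with LPS, groups that did not overlap. The change was 3.33-fold lower (log2 fold change -1.73, SE 0.29, adjusted p = 0.0018 from edgeR's test), the only member called in that comparison of 8 tested, where 2.68% of 15920 genes were called. In KD, HBEGF was at 8.27, 9.25 and 5.83 CPM without LPS and at 4.22, 4.22 and 5.52 with LPS. That fall was smaller (-0.75, SE 0.23, adjusted p = 0.048 from edgeR's test), and the adjusted p rose to between 0.13 and 0.17 without KD replicate 1, KD replicate 2, or replicate 1 or 2 of KD with LPS. With a single fit over all 12 libraries the adjusted p was 0.086 from edgeR's test. With LPS, HBEGF was 2.48-fold higher in KD than in scramble control (1.31, SE 0.34, adjusted p = 0.01 from edgeR's test), and without LPS the groups overlapped (0.31, SE 0.20, adjusted p = 0.29 from edgeR's test). The interaction was 1.00 (SE 0.38) with an adjusted p of 0.3 from edgeR's test, so a difference of the LPS effect between KD and scramble control was not established for HBEGF.

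NRG1, neuregulin 1, was higher in KD whether or not LPS was given. Without LPS it was at 5.13, 4.96 and 5.29 CPM in scramble control and at 10.7, 14.9 and 14.0 in KD. With LPS it was at 4.01, 3.96 and 4.90 CPM in scramble control and at 11.4, 12.9 and 14.1 in KD. Every KD library was above every scramble library by a wide margin. The rises were 2.59-fold (1.37, SE 0.16, adjusted p = 6.0e-05 from edgeR's test) and 2.97-fold (1.57, SE 0.18, adjusted p = 1.9e-05 from edgeR's test). In scramble control the libraries with LPS were all below those without by a narrow gap, but no change was detectable (-0.24, SE 0.19, adjusted p = 0.46 from edgeR's test). LPS did not change NRG1 detectably in KD either (-0.05, SE 0.16, adjusted p = 0.92 from edgeR's test).

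NRG1 was the only member of 8 tested that was called in KD without LPS, where 7.77% of 16217 genes were called, and AREG joined it when no minimum fold was asked, 2 members in all, where 27.2% of all genes passed. With LPS, 3 of 9 members were called in KD, all higher (EREG, HBEGF and NRG1), where 8.48% of 15981 genes were called in either direction and 4.58% were called higher. Without a minimum fold, AREG and EGFR were added, 5 members in all, where 26.9% of all genes passed. The median log2 fold change was 0.24 over the members tested without LPS and 0.83 with LPS, against 0.02 and 0.03 over all genes. For LPS in KD, 1 of 9 members was called (EREG, higher), where 2.25% of 16169 genes were called. The KD comparisons with and without LPS used different libraries, but each LPS comparison shares its libraries with both of them, so the 4 comparisons are not independent.

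TGFA and BTC were near the limit of detection. TGFA, transforming growth factor alpha, had 0 counts in all 9 libraries of the other 3 groups and 0, 14 and 4 counts in KD with LPS. One library of that group was at 0 like the rest, and the adjusted p against scramble control with LPS was 0.13 from edgeR's test. A count of 0 allows up to 3 counts per library, from counting error only. BTC, betacellulin, had 34, 51 and 30 counts in scramble control, 10, 2 and 20 with LPS, 38, 10 and 10 in KD, and 17, 21 and 2 in KD with LPS. The scramble groups with and without LPS did not overlap, yet the adjusted p was 0.21 from edgeR's test (log2 fold change -1.46, SE 0.71), and the other comparisons of BTC overlapped.

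EGFR was the most abundant receptor and rose moderately in KD with LPS. It was at 297, 329 and 292 CPM in scramble control, at 309, 335 and 348 with LPS, and at 343, 355 and 328 in KD. In KD with LPS it was at 479, 463 and 504 CPM, above every other library. The rise of KD over scramble control with LPS was 1.46-fold (0.54, SE 0.074, adjusted p = 8.7e-05 from edgeR's test) and that with LPS in KD 1.41-fold (0.50, SE 0.069, adjusted p = 2.0e-04 from edgeR's test), both under the 2-fold limit. Without LPS, KD and scramble control overlapped by 1 KD library (0.17, SE 0.076, adjusted p = 0.13 from edgeR's test), and with library size alone as scaling the change was 0.27 with an adjusted p of 0.024 from edgeR's test. The interaction was 0.38 (SE 0.10, adjusted p = 0.087 from edgeR's test), and with DESeq2 its adjusted p was 0.011. EGFR-AS1, a noncoding gene, is annotated on the opposite strand within EGFR, and the library kit kept strand, but whether strand was used in counting is not given in the sources used here.

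ERBB2 and ERBB3 gave no call in any comparison. ERBB2, the receptor without a ligand of its own, was at 71.3, 67.5 and 52.3 CPM in scramble control and at 56.1, 61.5 and 56.1 with LPS. In KD it was at 50.9, 49.0 and 57.9 CPM without LPS and at 55.7, 55.5 and 46.5 with LPS. Without LPS the groups overlapped through scramble replicate 3 (-0.27, SE 0.12, adjusted p = 0.1 from edgeR's test), and without that library the change was -0.41 with an adjusted p of 0.015. With LPS, the KD libraries were all below the scramble libraries by a narrow gap (-0.14, SE 0.097, adjusted p = 0.34 from edgeR's test). ERBB2 shares its ends with PGAP3 and MIEN1 on the other strand. ERBB3, a partner of ERBB2 with little kinase activity, had 9 to 22 counts in every library, and no difference was detectable at counts this low.

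**Figure D3:**
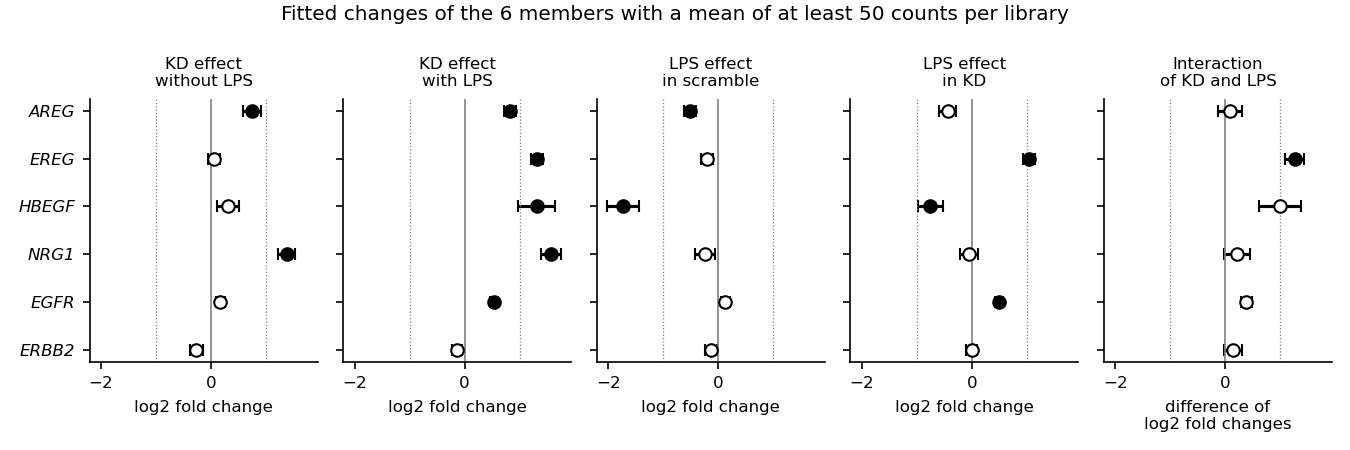
Log2 fold change (horizontal axis, with SE as whiskers) of AREG, EREG, HBEGF, NRG1, EGFR and ERBB2 in the 4 comparisons, with the interaction in the last panel. Filled points have an adjusted p below 0.05 from edgeR's test and dotted lines mark a 2-fold change; EREG is filled in both comparisons that include KD with LPS and in the interaction.

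ERBB4, the fourth receptor, was measured although it was not among the 9 genes, and it moved the other way from NRG1, one of its ligands. It was at 15.2, 14.0 and 17.0 CPM in scramble control and at 5.88, 7.11 and 6.42 in KD, 2.37-fold lower (-1.25, SE 0.14, adjusted p = 5.0e-05 from edgeR's test). With LPS it was at 17.4, 16.8 and 17.8 CPM in scramble control and at 10.6, 8.93 and 6.78 in KD, again without overlap (-0.98, SE 0.17, adjusted p = 5.7e-04 from edgeR's test) but just under 2-fold. Among the other ligands, EGF itself had 63 counts over the 3 libraries of KD with LPS (15, 31 and 17) and 2 over those of scramble control with LPS (1, 1 and 0). The ratio of these counts per total count was 34, with an exact 95% interval of 9.02 to 287 that covers counting error only, and the adjusted p was 0.017 from edgeR's test, or 0.058 without replicate 3 of scramble control with LPS and 0.067 without replicate 2 of KD with LPS. EPGN, epigen, had 34, 30 and 22 counts in scramble control and 81, 55 and 48 in KD, and the adjusted p of edgeR's test was 0.05, not below it. Over the alternatives it was 0.028 to 0.22, and EPGN was called with DESeq2, with other scalings, with a stricter filter on low counts and without KD replicate 2. NRG2, NRG3 and NRG4 had 0 to 37 counts and were not called in any comparison.

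Among the 9 genes that release the ligands, 1 was called higher and 2 lower in KD, with and without LPS, where 8.48% and 7.77% of all genes were called. RHBDF2, which encodes the iRhom2 partner of ADAM17, had 5, 6 and 3 counts in scramble control and 69, 98 and 102 in KD (log2 fold change 4.49, SE 0.52, adjusted p = 5.0e-05 from edgeR's test), and 0, 4 and 2 against 42, 91 and 40 with LPS. TIMP3, an inhibitor of ADAM17, was at 838, 1127 and 1185 CPM in scramble control and at 224, 215 and 258 in KD (-2.17, SE 0.13, adjusted p = 2.3e-07 from edgeR's test). It also fell with LPS, by 2.17-fold in scramble control and 2.23-fold in KD, the only one of these 9 genes called for LPS. Of all genes, 2.68% and 2.25% were called for LPS in scramble control and in KD. ADAM12, a metalloprotease that can cut HBEGF, was lower in KD by 2.53-fold without LPS and 3.25-fold with it. ADAM10 and ADAM17 themselves were not called in any comparison, and ADAM17 was 1.25-fold higher with LPS in scramble control (adjusted p = 0.015 from edgeR's test) and 1.34-fold higher in KD (adjusted p = 0.003 from edgeR's test).

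Genes that carry the receptor signal were called about as often as all genes without LPS, 2 of 23 where 7.77% of all genes were called, and 1 of 23 with LPS, where 8.48% were. Without a minimum fold, 11 of the 23 passed without LPS and 10 with LPS, against 27.2% and 26.9% of all genes. Of these adaptors, exchange factors and kinases, SHC3, an adaptor best known from neurons, was called higher in KD without LPS (5.03 to 5.77 CPM in scramble control, 27.6 to 44.1 in KD) and with LPS (4.49-fold), and PIK3R1, the regulatory subunit of PI3K, was called lower without LPS (2.07-fold), a call that fell under 2-fold with library size alone as scaling (-0.94) and without scramble replicate 1 (-0.98). None of the 23 was called for LPS in scramble control or in KD, where 2.68% and 2.25% of all genes were called. Of 11 inhibitors that act on the receptors, 1 was called in KD without LPS and 2 with LPS, all higher, where 7.77% and 8.48% of all genes were called. PTPRK, a phosphatase that acts on EGFR, was called higher in KD without LPS (2.59-fold) and with LPS (3.61-fold). LRIG1, a membrane protein that promotes loss of ERBB receptors, was called higher with LPS (2.26-fold), at 21.7, 28.5 and 28.3 CPM in KD against 11.0, 11.9 and 11.8 in scramble control. PTPRK and LRIG1 also had an adjusted p below 0.05 for the interaction, where 1.28% of 17173 genes had one. Without a minimum fold, 2 of the 11 were higher and 3 lower in KD without LPS, and 3 higher and 2 lower with LPS. Of all genes, 27.2% and 26.9% passed in these comparisons.

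Of 18 genes commonly induced by ERBB and ERK signalling, 3 were called higher and none lower in KD without LPS, and 2 higher and 1 lower with LPS. Of all genes, 7.77% and 8.48% were called in these comparisons, in either direction. FOS, an immediate early gene, was at 8.04 to 13.2 CPM in scramble control and 25.6 to 34.5 in KD (1.56, SE 0.19, adjusted p = 7.1e-05 from edgeR's test), and IER3, an early gene known to respond to ERK, was higher without LPS (2.40-fold) and with LPS (3.94-fold). EPHA2, a receptor kinase, was higher by 2.38-fold without LPS, a call lost without scramble replicate 1 or 3 or KD replicate 3 (adjusted p up to 0.081 from edgeR's test), and by 4.70-fold with LPS. EPHA4 was called lower with LPS (2.35-fold). Without a minimum fold, 6 of the 18 were higher and 6 lower in KD without LPS, and 6 higher and 5 lower with LPS, where 27.2% and 26.9% of all genes passed in either direction. The median log2 fold change of the 18 was -0.00 without LPS and 0.08 with LPS. For LPS, 2 of the 18 were called in scramble control and 1 in KD, all lower, where 2.68% and 2.25% of all genes were called. LPS lowered SPRY2, a feedback inhibitor of ERK signalling, by 2.78-fold in scramble control and 2.17-fold in KD. EPHA2 was also called lower with LPS in scramble control (3.41-fold), a call lost without any 1 of 4 of the 6 libraries (adjusted p up to 0.26 from edgeR's test).

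**Figure D4:**
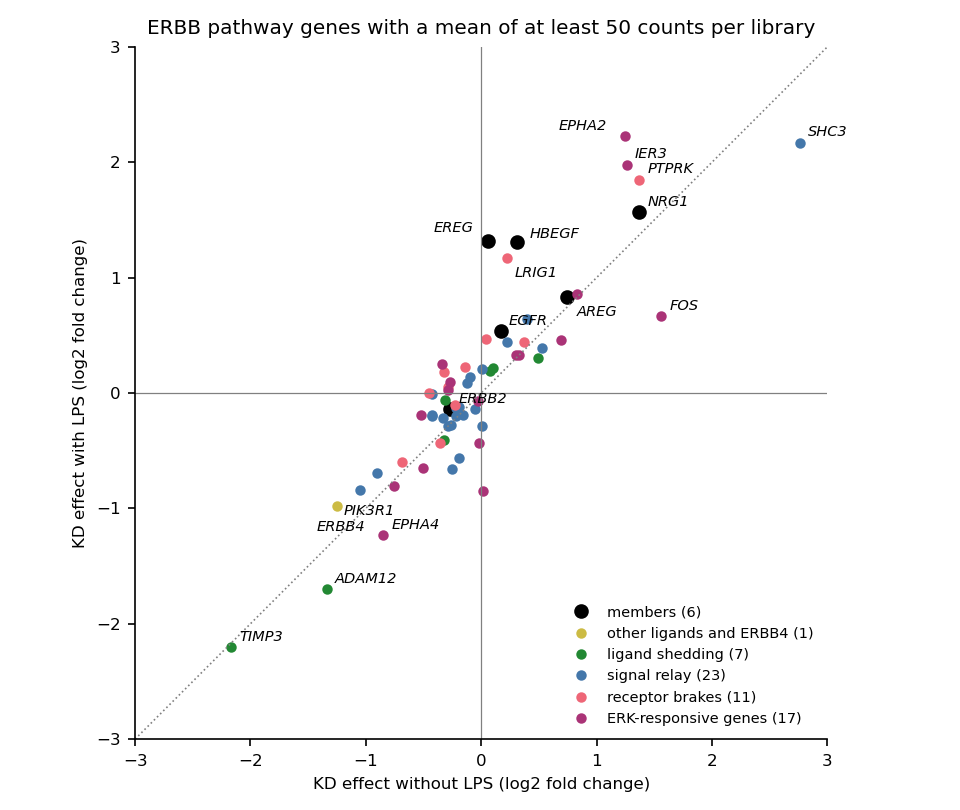
KD effect with LPS (vertical axis) against KD effect without LPS (horizontal axis), both log2 fold changes, for the 6 members and the 59 other genes of the pathway lists that averaged 50 counts per library or more; the dotted line marks equal effects. EREG, HBEGF and LRIG1 lie above the line near 0 on the horizontal axis, while NRG1 and AREG lie near the line.

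The mRNAs of the ligands carry AU-rich elements in their 3' untranslated regions, and these are shown because HuR, a protein known to bind such elements, was studied as a partner of linc-ADAIN. In the canonical transcripts of GENCODE 44, the AREG region of 265 bases holds 4 ATTTA pentamers, 15.1 per kb, above 99.6% of 18509 genes. EREG holds 20 in 3941 bases (5.07 per kb, 90.8th percentile), BTC 12 in 1918 bases (6.26 per kb) and HBEGF 5 in 1456 bases (3.43 per kb). The receptors hold fewer, with 1.5 per kb in EGFR, 1.38 in ERBB3 and none in the 614 bases of ERBB2, where the median of all genes is 1.59. The longer element TATTTAT, in capitals below, is held by 32.5% of genes, by AREG once, by EREG at 4 places, by HBEGF, TGFA and NRG1 at 2 each, and not by BTC or the receptors. Of these, 1 is shown for AREG at chr4:74454960-74454984, 1 for EREG at chr4:74388671-74388695 (plus strand, GRCh38) and 1 for HBEGF at chr5:140333680-140333704 (minus strand).

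AREG site: atggaagtgTATTTATtttacagct
EREG site: attaattttTATTTATttttcttgg
HBEGF site: taaattataTATTTATtttattcta

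The stability of these mRNAs was not measured here.

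The genes whose log2 CPM followed each member most closely across the 12 libraries were found among 11810 genes that averaged 50 counts or more. For AREG they included MCL1 and CHKB-CPT1B (Pearson r 0.92 each), for EREG CSNK1G3 (0.975), VPS26A and UBE2D1, and for HBEGF PTHLH (0.973), YRDC and SLC4A7. For NRG1 they were MARS1 (0.987), ACKR4 and CSGALNACT2, for EGFR RASA2 (0.974), SDC4 and NR3C1, and for ERBB2 AKT1 (0.933), MTA1 and MAP3K11. Among the members themselves, EGFR and EREG had an r of 0.90, AREG and HBEGF 0.82, and AREG and EREG 0.42. These correlations are descriptions over libraries that share group, depth and scaling, and they carry no p.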

How the data were processed

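RNA-seq libraries (Illumina Stranded mRNA prep, polyadenylated RNA, RNA integrity number above 9 per the study's methods) were made for 4 groups of 3. Per the submitters' processing notes and the methods, the authors used bcl2fastq 2.19, pseudoaligned the reads with kallisto 0.44.0 to human transcriptomes (GRCh38) and ran DESeq2 1.32.0. The release of the transcript set is not given in the sources used here. The authors deposited the estimated counts per gene, not normalized for depth or length. Reads shared between transcripts are divided by kallisto, so counts of overlapping genes are estimates. A row without a gene name was left out.

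In R 4.3.3, the deposited estimated counts were rounded, genes were kept if the fitted libraries held 10 or more counts together, and edgeR 4.0.16 was run with TMM scaling and quasi-likelihood F tests. P-values were adjusted over all genes tested (Benjamini-Hochberg). Each comparison used its 6 libraries and the interaction all 12, with no covariates. Genes were called at an adjusted p under 0.05 and at least 2-fold, as in the study's methods, and by adjusted p alone for the interaction. The SE is the size of the log2 fold change divided by the square root of F. The fits were tested on simulated data. CPM were scaled over all 12 libraries. Lengths came from GENCODE 44 (28293 of 28901 names matched) and promoters from RefSeq (7 of 9 members matched).

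The members and gene lists were chosen with earlier results of these data known. Named are the 9 members, the other EGF family genes, and in each list of pathway genes up to 3 called genes that rose most and 3 that fell most with a mean of at least 50 counts in a group, of which a few are described for 1 comparison only. ADAM10 and ADAM17 were also named for their role, and some cell type markers as checks. Alternatives were DESeq2 1.42.0, other scalings, other filters, a single fit over all 12 libraries, a block for replicate number, no minimum fold, and leaving out single libraries. The canonical transcript length was added after the data were seen, and gave the order of members that the longest transcript gave. A gene among those most like AREG is not reported here.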

Additional observations from a re-analysis of the deposited data

Results flagged for a closer look

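For 4 of the members and pathway genes described, the interaction of KD with LPS had an adjusted p below 0.05 in edgeR's test over 12 libraries. Of these calls, 3 did not hold under every alternative. For EREG the difference of the log2 fold changes was 1.26 (SE 0.17, adjusted p = 7.3e-04), with a rise of 1.04 in KD and a change of -0.21 in scramble control, and the adjusted p was at most 0.0039 under every alternative run. For LRIG1 it was 0.96 (SE 0.19, adjusted p = 0.019 from edgeR's test), with 0.55 in KD and -0.40 in scramble control, and with single libraries left out the adjusted p reached 0.07. For IER3 it was 0.72 (SE 0.17, adjusted p = 0.047 from edgeR's test), with 0.59 in KD and -0.12 in scramble control, and the adjusted p was 0.051 with median-of-ratios scaling, 0.059 with library size alone and 0.062 with a stricter filter on low counts, and reached 0.15 with single libraries left out. Without KD replicate 1 the adjusted p for IER3 was 0.1 from edgeR's test. For PTPRK it was 0.49 (SE 0.11, adjusted p = 0.038 from edgeR's test), with 0.35 in KD and -0.12 in scramble control, and the adjusted p was 0.051 with the replicate block and 0.055 with library size alone, and reached 0.14 with single libraries left out. Its adjusted p from edgeR's test was 0.096 without KD replicate 1 and 0.052 without replicate 1 of KD with LPS. SPRED2, from the same list as IER3 and not described above, also had an interaction with an adjusted p below 0.05 (0.60, SE 0.13, adjusted p = 0.03 from edgeR's test). With single libraries left out, 0 to 2 genes of that list had one, and 0 without KD replicate 1. Groups of 3 libraries were not examined for single outlying values.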

How the results depend on the processing

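NRG1 and HBEGF kept their calls under each alternative, and EREG kept its call for KD with LPS and for the interaction. Without a minimum fold, the members called numbered 2 for KD without LPS, 5 for KD with LPS, 2 for LPS in scramble control and 3 for LPS in KD, in place of 1, 3, 1 and 1. For LPS in KD, library size alone as scaling gave 0 (EREG at 0.98), and leaving out single libraries gave 0 to 1. For the interaction, DESeq2 gave 2 (EGFR added) in place of 1. Leaving out single libraries changed no count in the other comparisons. Directions that reversed belonged to changes that were not called. With single libraries left out, these were EREG (-0.05 to 0.17) and ERBB3 (-0.02 to 0.78) for KD without LPS, BTC (-0.11 to 1.03) for KD with LPS, BTC (-0.99 to 0.63), NRG1 (-0.18 to 0.04) and ERBB3 (-0.32 to 0.46) for LPS in KD, and AREG (-0.13 to 0.23) and ERBB3 (-0.62 to 0.17) for the interaction. Causes were not tested.

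Whether the replicate numbers pair the libraries was not settled. Replicate 1 of KD and replicate 1 of KD with LPS stood apart together on the third principal component, at -62.9 and -41.1. The deviations of libraries with the same number correlated at -0.10 to 0.25, and only for some of them best with their own number. With the replicate number as a block, 1161 genes were called for KD without LPS in place of 1260, 1302 for KD with LPS in place of 1355, 473 for LPS in scramble control in place of 426 and 456 for LPS in KD in place of 363, and ERBB3 for LPS in KD was at 0.08 in place of -0.02. The block left the number of members called at 1, 3, 1, 1 and 1, and for AREG with LPS in KD it gave an adjusted p of 0.0015 from edgeR's test. For PTPRK the interaction was 0.48 with the block, with an adjusted p of 0.051 from edgeR's test.

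The depth limits TGFA, BTC, ERBB3, EGF and EPGN, whose libraries hold at most 81 counts, and the fold of RHBDF2, whose scramble libraries hold at most 6.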
